A study of Mus musculus with 12 samples.

Results

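The nuclear genes for the proteins of the mitochondrial ribosome (MRP genes) were examined in livers of obese mice given ethionine, with the gene Mrpl43 set against the rest of the family. A gene was a member when it was protein-coding, carried an Mrpl or Mrps symbol followed by a number, and had at least 10 counts in at least 6 of the 12 libraries. Of 83 genes with such a symbol, 78 met the rule, out of 56205 genes in the count table. They comprised 49 genes named for the large subunit and 29 named for the small subunit, and each of the 78 had at least 10 counts in all 12 libraries. The remaining 5 symbols were processed pseudogenes.

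Whole livers of 12 ob/ob mice, 6 per group, were profiled by poly(A)-selected RNA-seq, 1 library per mouse. All mice lacked leptin (the study's methods name the Lep ob strain on a B6 background), were stated to be male, and were 8 to 10 weeks old when treatment began. The OBOB_FLO group ate standard chow, and the OBOB_Fibrotic group ate the same chow and received ethionine, a toxic analogue of the amino acid methionine that carries an ethyl group. The sources differ on the exposure. The treatment label gives 0.165% DL-ethionine in the water and the design text a duration of 2 weeks, the growth label gives an injection of 0.15%, and the study's methods give 0.15% in the water for 1 week. Both groups carried the same leptin deficiency, so no lean liver entered the comparison. The words fibrotic and FLO are used below only as the names of the groups. The collagen genes of a liver scar were not called, with log2 fold changes (fibrotic minus FLO) of -0.22 for Col1a1 (adjusted p = 0.611), -0.11 for Col1a2 (adjusted p = 0.713) and -0.03 for Col3a1 (adjusted p = 0.925), and the groups overlapped for each. Timp1, an inhibitor of matrix proteases, stood at -0.39 (adjusted p = 0.418). Acta2, the smooth muscle actin of activated stellate cells, stood at -1.15 (adjusted p = 0.00446). Its call was lost without fibrotic replicate 3, 4 or 6 or FLO replicate 3 or 6 (adjusted p = 0.0104 to 0.0123). The call was also lost with no low-count filter (adjusted p = 0.0139) and with a replicate block (adjusted p = 0.0283). With that block and a correction for GC content and length it was lost too (adjusted p = 0.0297). These 5 genes were chosen after other results of these data were seen.

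Mitochondria translate the few proteins encoded by their own genome, all of them subunits of the respiratory chain and ATP synthase, on a ribosome of their own. Its rRNAs are mitochondrial transcripts, while every one of its proteins is encoded in the nucleus and imported. Some of these proteins descend from bacterial ribosomal proteins and others were acquired by mitochondria. Hepatocytes are rich in mitochondria, and the promoters of many MRP genes are known to carry sites for NRF1 and for the ETS factor GABP.

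Promoter sequences are shown for 4 members on which the results below turn, taken from RefSeq (build GRCm38.p6) as windows of 300 bases that run from 250 bases before the annotated start to 50 after it. Letters that match a searched motif are in capitals: CCGGAAG for ETS factors, GCGC and TGCGC with 1 base between them for NRF1, and GGGCGG for SP/KLF factors, each read on both strands. Mrpl43, at chr19:45006393-45006692 on the minus strand, is shown because it had the largest change of the family, and its window held the ETS letters and the SP/KLF letters 2 times each. Mrps18b (chr17:35916391-35916690, minus strand) and Mrpl12 (chr11:120484387-120484686, plus strand) are shown as risen members of high level, with 1 ETS match and 2 SP/KLF matches in the former and 1 NRF1 match in the latter. Mrpl34 (chr8:71464676-71464975, plus strand) is shown because it had the largest fall, and its window held 1 ETS match.
Mrpl43: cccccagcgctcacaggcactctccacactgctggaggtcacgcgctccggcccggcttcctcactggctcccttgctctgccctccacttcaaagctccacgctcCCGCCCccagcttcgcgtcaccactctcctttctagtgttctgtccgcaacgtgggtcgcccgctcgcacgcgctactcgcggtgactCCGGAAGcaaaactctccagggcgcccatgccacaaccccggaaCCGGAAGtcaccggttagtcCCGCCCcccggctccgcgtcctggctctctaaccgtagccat
Mrps18b: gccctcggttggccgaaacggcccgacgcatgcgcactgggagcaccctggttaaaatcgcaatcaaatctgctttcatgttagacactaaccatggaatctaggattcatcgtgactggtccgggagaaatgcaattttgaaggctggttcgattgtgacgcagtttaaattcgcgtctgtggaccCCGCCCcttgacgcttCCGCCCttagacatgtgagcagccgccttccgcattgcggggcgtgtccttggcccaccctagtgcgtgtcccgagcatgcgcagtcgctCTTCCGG
Mrpl12: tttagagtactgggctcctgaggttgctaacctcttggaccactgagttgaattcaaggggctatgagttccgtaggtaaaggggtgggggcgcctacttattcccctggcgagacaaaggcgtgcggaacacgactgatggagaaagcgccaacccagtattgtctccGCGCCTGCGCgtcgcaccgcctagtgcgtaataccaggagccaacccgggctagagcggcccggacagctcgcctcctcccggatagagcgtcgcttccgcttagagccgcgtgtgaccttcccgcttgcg
Mrpl34: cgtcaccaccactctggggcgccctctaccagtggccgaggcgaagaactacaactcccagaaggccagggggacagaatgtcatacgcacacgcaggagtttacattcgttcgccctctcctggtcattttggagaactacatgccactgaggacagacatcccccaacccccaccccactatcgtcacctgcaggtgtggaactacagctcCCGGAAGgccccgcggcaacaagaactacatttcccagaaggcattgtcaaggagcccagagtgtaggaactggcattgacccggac

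Libraries held between 17815568 and 24814263 counts, and the groups overlapped in depth. Alb, the albumin gene and a defining hepatocyte marker, averaged 52922 CPM in fibrotic and 65410 CPM in FLO libraries. OBOB_FLO replicate 3 went against the stated sex, with 3773 counts of Xist, the transcript of the inactive X chromosome, where every other library held 0 to 4. It was kept in its group, and the sums and the most changed members are also given without it. No member was at or near 0 in any library: the lowest count was 47, for Mrpl23 in a fibrotic library.

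Summed over the 78 members, MRP transcripts were higher in OBOB_Fibrotic than in OBOB_FLO livers, and the small subunit differed by more than the large. Levels are in CPM, the counts scaled to a common library size after TMM normalisation. The family summed to 3104 ± 219 CPM (SD, n = 6) in fibrotic libraries, with a lowest value of 2743, a median of 3134 and a highest value of 3361. In FLO libraries it summed to 2317 ± 98.4 CPM (SD, n = 6), from 2191 through a median of 2299 to 2467. The lowest fibrotic library thus lay above the highest FLO library, at a ratio of means of 1.34. The highest FLO value was that of replicate 3, and without it the FLO libraries summed to 2191 to 2382 CPM, at a ratio of 1.36. No p-value is given for a sum over members that were chosen with earlier results known. As a share of raw counts, without any scaling between libraries, the family took 0.329 ± 0.0219% in fibrotic and 0.218 ± 0.00973% in FLO libraries (SD, n = 6).

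Large-subunit members summed to 1952 ± 153 CPM in fibrotic and 1541 ± 68.5 CPM in FLO libraries (SD, n = 6), a ratio of 1.27. Small-subunit members summed to 1152 ± 66.2 CPM in fibrotic and 775 ± 33.1 CPM in FLO libraries (SD, n = 6), a ratio of 1.49. Mrps34 alone made 124 of the 377 CPM by which the small-subunit means differed, and its value is uncertain, as described further on. The large-to-small ratio within a library ran from 1.64 to 1.74 in the OBOB_Fibrotic group, against 1.94 to 2.04 in the OBOB_FLO group, so the groups did not overlap. With subunits assigned by the solved structures rather than by symbol, the ratio ran from 1.85 to 1.96 and from 2.16 to 2.29, again without overlap. These sums rest on a few members: Mrpl12, Mrps34, Mrpl43 and Mrps18b, the 4 with the largest CPM differences, together accounted for 50.3% of the summed difference. Because they were picked by that difference, leaving them out lowers the ratio by construction. Without those 4 genes the family summed to 2450 ± 165 and 2058 ± 89.5 CPM (SD, n = 6), a ratio of 1.19 in which the highest FLO library and the lowest fibrotic library both stood at 2177 CPM. That FLO library was again replicate 3, and without it the FLO libraries reached 2137 CPM, below every fibrotic library, at a ratio of 1.20.

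**Figure D1:**
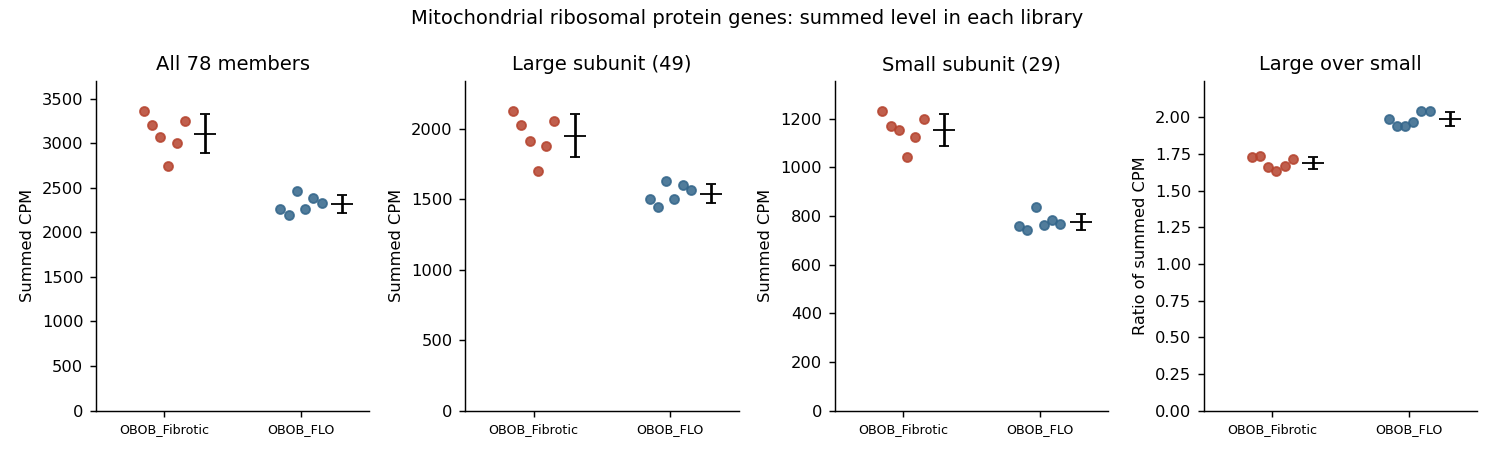
Summed level (CPM) of all 78 members, of the 49 large-subunit and of the 29 small-subunit members, and the large-to-small ratio, for OBOB_Fibrotic (red) and OBOB_FLO (blue). Each point is 1 library and the black bars give mean ± SD (n = 6); fibrotic libraries lie above FLO libraries in all 3 sums and below them in the ratio.

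To ask which members differed, the groups were compared gene by gene over all 13416 genes that passed the low-count filter, among them all 78 members. A gene was called when the Benjamini-Hochberg adjusted p of the edgeR quasi-likelihood test was 0.01 or less and the log2 fold change (fibrotic minus FLO) exceeded 0.5 in size. Of the 78 members, 27 (34.6%) were called, beside 29.9% of all tested genes. By direction, 23 members (29.5%) rose, beside 15.9% of all genes, and 4 (5.13%) fell, beside 14.0%. The median log2 fold change was 0.27 over the members and 0.03 over all tested genes, and 58 of 78 members (74.4%) had a positive value, beside 51.7% of all genes. Another 12 members passed the p threshold with a smaller change. Groups did not overlap for 31 members in the higher and 6 in the lower direction, or 47.4% of members, beside 15.3%, 15.1% and, in all, 30.4% of tested genes. At an adjusted p of 0.05 with no fold limit, 42 of 78 members were higher, 8 lower and 50 called in all. The matching shares of all tested genes were 27.3%, 24.8% and 52.1%. With a fold limit of 1 on the log2 scale, 8 of 78 members were called, a smaller share than the 12.6% of all genes.

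The subunits were counted separately, and the difference between them was not tested. Of 29 small-subunit members, 12 (41.4%) rose and 1 (3.45%) fell, with a median log2 fold change of 0.31. Of 49 large-subunit members, 11 (22.4%) rose and 3 (6.12%) fell, with a median of 0.18. Over all tested genes 15.9% rose and 14.0% fell, and the share of large-subunit members called in either direction, 28.6%, was near the 29.9% of all genes. When GC content and length were corrected for, the medians were 0.28 (large) and 0.41 (small). The symbols are an imperfect guide: the products of Mrps18a and Mrps30 sit in the large subunit in the structures, and Mrps36 encodes a subunit of the 2-oxoglutarate dehydrogenase complex that is no longer counted as a ribosomal protein. With these 3 genes moved or left out, 9 of 26 small-subunit members rose and 1 fell (median 0.31), while 13 of 51 large-subunit members rose and 3 fell (median 0.22). By ancestry, 13 of 33 proteins acquired by mitochondria rose (39.4%) and 2 fell (median 0.33). Of 44 proteins with a bacterial counterpart, 9 rose (20.5%) and 2 fell (median 0.20), and the 11 called in either direction were a smaller share than the 29.9% over all genes. Mrps18a and Mrps18b, which both rose, were counted as acquired although they are relatives of a bacterial protein. Counting them with the bacterial class would narrow the gap between the classes. The median SD of log2 CPM within a group was 0.15 and 0.13 over members (fibrotic and FLO), beside 0.25 and 0.21 over all tested genes. These sets were not matched for expression level, on which this SD depends.

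**Figure D2:**
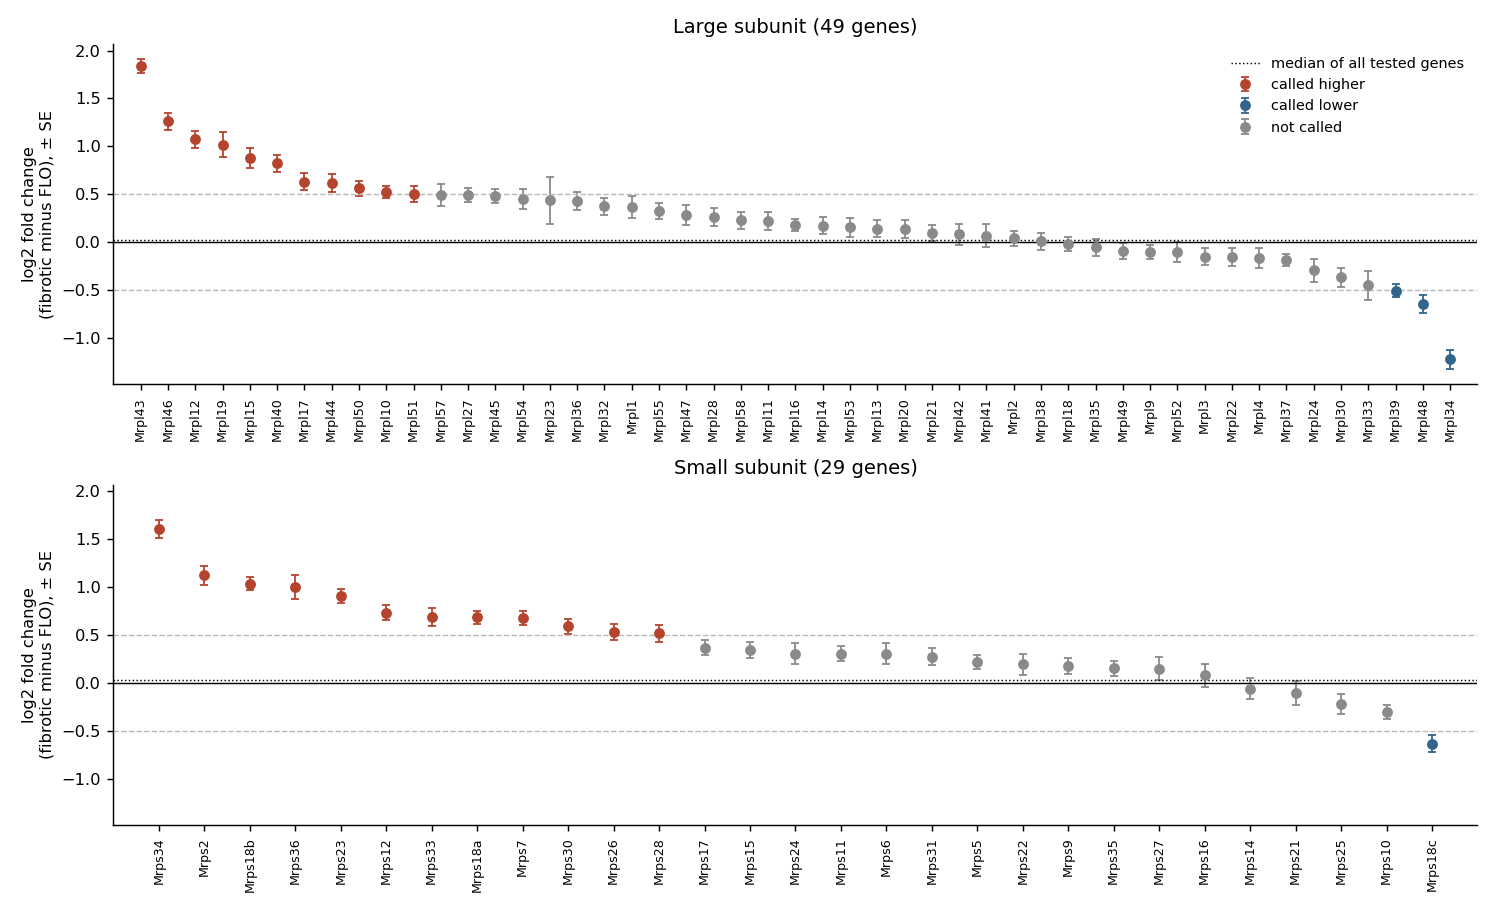
Log2 fold change (fibrotic minus FLO, ± SE) of each member, ordered by value, for the 49 large-subunit and 29 small-subunit genes; red points were called higher, blue points lower and grey points not called. Mrpl43 heads the large subunit at 1.83 and Mrpl34 closes it at -1.22, and the dashed lines mark the fold limit of 0.5.

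Mrpl43 had the largest log2 fold change of the family. It encodes a mitochondria-acquired protein of the large subunit (ENSMUSG00000025208, chr19:45004829-45006442, minus strand, mm10). In replicates 1 to 6 its level was 145, 138, 126, 123, 139 and 149.8 CPM in fibrotic and 37.5, 38.2, 40.2, 41.0, 36.4 and 36.9 CPM in FLO livers. No fibrotic library came near the FLO range. The log2 difference came to 1.83 (SE 0.07, adjusted p = 1.44e-10), a 3.56-fold higher level, and the gene ranked 7 by p and 276 by size of rise among the 13416 genes tested. Without OBOB_FLO replicate 3 the log2 fold change was 1.85 for Mrpl43, 1.63 for Mrps34, 1.28 for Mrpl46, 1.16 for Mrps2, 1.06 for Mrps18b and -1.20 for Mrpl34, described further on.

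Per kilobase of transcript, Mrpl43 ranked 26 to 30 of the 78 members in FLO libraries and 3 or 4 in fibrotic libraries. On the log2 scale of CPM per kilobase, it stood 0.72 ± 0.14 above the median of the other 77 members in FLO and 2.18 ± 0.11 above it in fibrotic libraries (SD, n = 6). Its share of all MRP transcripts counted was 1.66 ± 0.103% in FLO and 4.41 ± 0.206% in fibrotic livers (SD, n = 6). Without Mrpl43, 22 of 77 members rose (28.6%) and 4 fell (5.19%), beside 15.9% and 14.0% of all tested genes. The median log2 fold change of these 77 members was 0.26.

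Mrpl43 overlaps Twnk, the gene of the mitochondrial DNA helicase, which starts within it on the opposite strand and shares 507 of its 1520 exonic bases. Twnk ran from 13.6 through a median of 24.6 to 31.4 CPM in fibrotic and from 21 through 21.5 to 23.9 CPM in FLO livers. The groups overlapped, and the log2 fold change was 0.07 (SE 0.15, adjusted p = 0.700). Sema4g, a membrane semaphorin gene beside Mrpl43, stood at a log2 value of -0.42 (SE 0.11, adjusted p = 0.00547), under the fold limit. Lzts2, the next neighbour, stood at 0.12 (SE 0.12, adjusted p = 0.431). Whether the counting used strand is not given in the sources used here, so reads from the shared bases could be credited to either gene.

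**Figure D3:**
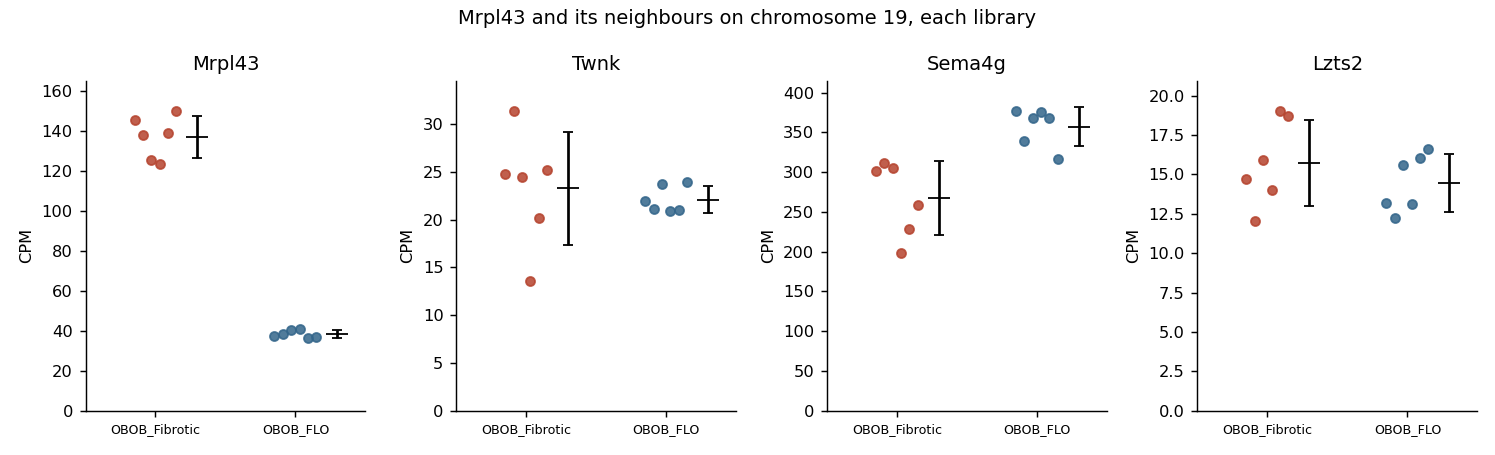
Level (CPM) of Mrpl43 and of its neighbours Twnk, Sema4g and Lzts2 in each OBOB_Fibrotic (red) and OBOB_FLO (blue) library, with mean ± SD (n = 6) as black bars. The Mrpl43 groups are far apart (123 to 149.8 against 36.4 to 41.0 CPM), whereas those of Twnk and Lzts2 overlap.

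After Mrpl43, the largest rises were in Mrps34, Mrpl46, Mrps2, Mrpl12 and Mrps18b. Mrps34 encodes a mitochondria-acquired protein needed for a stable small subunit. It ran from 149.6 through a median of 182 to 217 CPM in fibrotic and from 53.9 through 60.7 to 68.3 CPM in FLO livers. The groups were far apart, and the log2 fold change was 1.60 (SE 0.09, adjusted p = 7.45e-09). Its value is uncertain in part because 77.8% of its exonic bases overlap those of Mapk8ip3, on the opposite strand, or Nme3, on the same strand. Its head-to-head neighbour Eme2, whose start lies 29 bases away, also rose, by 1.82 on the log2 scale (SE 0.17, adjusted p = 4.85e-07).

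Mrpl12 encodes the stalk protein of the large subunit, which receives the translation factors and has also been described as a partner of the mitochondrial RNA polymerase. It had the highest level per kilobase over all libraries (behind Mrps34 in the fibrotic group alone), and ran from 207 through a median of 243 to 271 CPM in fibrotic and from 108 through 111 to 132 CPM in FLO livers. Every fibrotic library exceeded every FLO library, and the log2 fold change was 1.07 (SE 0.08, adjusted p = 1.25e-07). The highest FLO value was that of replicate 3, without which the FLO libraries reached 116 CPM and the log2 fold change was 1.12. Mrpl10, whose protein anchors the Mrpl12 stalk to the ribosome, rose by 0.52 (SE 0.07, adjusted p = 1.01e-05), from 54.0 ± 2.60 to 77.7 ± 4.41 CPM (SD, n = 6). Without FLO replicate 6, and with upper quartile normalisation, it stood at the fold limit (0.50 after rounding) and was not called.

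The bacterial ribosomal protein S18 has 3 mitochondrial relatives, Mrps18a, Mrps18b and Mrps18c, and they did not move alike. Mrps18b ran from 86.3 through a median of 91.1 to 97.3 CPM in fibrotic and from 40.6 through 44.2 to 48.3 CPM in FLO livers, without overlap. It rose by 1.04 on the log2 scale (SE 0.07, adjusted p = 1.98e-08). Gm16279, on the opposite strand, overlaps 30.5% of the exonic bases of Mrps18b, so the strand limit given for Mrpl43 holds here too. Mrps18a, whose product sits in the large subunit, rose by 0.68 (SE 0.07, adjusted p = 9.43e-07), from 26.0 ± 0.875 to 41.8 ± 2.90 CPM (SD, n = 6). Mrps18c, the relative that occupies the place of the bacterial protein, fell by 0.64 (SE 0.09, adjusted p = 2.89e-05), from 14.9 ± 1.26 to 9.59 ± 0.772 CPM (SD, n = 6). The fall of Mrps18c missed the fold limit when GC content and transcript length were corrected for, at -0.44 (adjusted p = 0.00232).

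Mrpl46, whose product belongs to the central protuberance of the large subunit, and Mrps11, a small-subunit gene, lie head to head on chromosome 7 and overlap at their 5′ ends. Mrpl46 ran from 36.6 through a median of 39.8 to 47.9 CPM in fibrotic and from 14.4 through 17.6 to 18.6 CPM in FLO livers. These groups did not overlap, and the log2 fold change was 1.26 (SE 0.09, adjusted p = 4.52e-08). Mrps11 passed the p threshold but not the fold limit, at 0.31 (SE 0.08, adjusted p = 0.00499). Over the whole family, 33 members had an opposite-strand gene that starts within 1000 bases of their own start. Among the 11 risen members whose partner was tested, 1 partner rose (Eme2), 1 fell (Ncapd2) and 9 were not called. Over all tested genes, 15.9% rose and 14.0% fell.

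Among other risen members, Mrps2 encodes a small-subunit protein of bacterial ancestry and ran from 39.0 through a median of 47.8 to 53.6 CPM in fibrotic and from 17.3 through 21.9 to 24.2 CPM in FLO livers. All fibrotic values lay above the FLO values, and the log2 fold change was 1.12 (SE 0.10, adjusted p = 3.64e-07). Mrps12, which encodes a protein of the decoding centre, rose by 0.73 (SE 0.08, adjusted p = 2.08e-06). Mrps36, the dehydrogenase subunit, rose by 1.0 (SE 0.13, adjusted p = 1.04e-05), from 10.1 ± 0.924 to 20.3 ± 4.18 CPM (SD, n = 6). Mrpl19, the member of lowest level per kilobase over all libraries (in the fibrotic group Mrpl47 was lower), rose by 1.02 (SE 0.13, adjusted p = 1.17e-05). Gcfc2, on the opposite strand, overlaps 36.0% of the exonic bases of Mrpl19. Mrps30, counted in the large subunit by the structures, rose by 0.59 (SE 0.08, adjusted p = 1.51e-05).

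The other risen members lay between 0.51 and 0.91 on the log2 scale. In the large subunit these were Mrpl15 (0.88), Mrpl40 (0.82), Mrpl17 (0.63), Mrpl44 (0.62), Mrpl50 (0.56) and Mrpl51 (0.51). In the small subunit they were Mrps23 (0.91), Mrps33 (0.69), Mrps7 (0.67), Mrps26 (0.53) and Mrps28 (0.52). Several of these lie at the fold limit, where 1 library or another setting decided the call. Mrpl51 fell short of the limit without fibrotic replicate 1 (0.46), fibrotic replicate 6 (0.49) or FLO replicate 1 (0.47), and Mrps28 without fibrotic replicates 1, 2 or 6 or FLO replicates 1 or 2 (0.48 to 0.50). Mrps26 fell short without FLO replicate 1 or 5 (both 0.50 after rounding). By setting, Mrpl51 and Mrps28 missed the limit with RLE normalisation (0.49 and 0.50), upper quartile normalisation (0.48 and 0.49) and DESeq2 (0.49 and 0.50), and Mrps26 missed it with the GC content and length correction (0.47).

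Against the direction of the family, Mrpl34, Mrpl48, Mrps18c and Mrpl39 fell. Mrpl34, a large-subunit protein of bacterial ancestry (ENSMUSG00000034880, chr8:71464959-71465747, plus strand, mm10), ran from 15.5 through a median of 17.5 to 23.9 CPM in fibrotic and from 41.0 through 43.4 to 47.2 CPM in FLO livers. The groups were widely separated, and the log2 fold change was -1.22 (SE 0.10, adjusted p = 1.49e-07). Mrpl48, whose product sits beside that of Mrpl46 in the central protuberance, fell by 0.65 (SE 0.09, adjusted p = 3.78e-05), from 25.6 ± 1.78 to 16.3 ± 2.28 CPM (SD, n = 6). Mrpl39, a large-subunit protein related to threonyl-tRNA synthetase, fell by 0.51 (SE 0.07, adjusted p = 1.46e-05), and no fibrotic library reached the lowest FLO value of 28.5 CPM. Its call was lost without fibrotic replicate 4 (-0.46), fibrotic replicate 6 (-0.50) or FLO replicate 2 (-0.50), each under the fold limit before rounding.

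The 51 members not called included several of high level. Mrpl14 and Mrpl52, which ranked just behind Mrpl12 and Mrps34 in level per kilobase over all libraries, had log2 fold changes of 0.17 (SE 0.09, adjusted p = 0.103) and -0.11 (SE 0.10, adjusted p = 0.414). Mrpl58, a peptidyl-tRNA hydrolase built into the large subunit that releases stalled chains, had 0.23 (SE 0.08, adjusted p = 0.0336). Mrpl47 and Mrps25, both of low level per kilobase, had 0.28 (adjusted p = 0.0362) and -0.22 (adjusted p = 0.0809). The members nearest the subunit medians were Mrpl16 at 0.18 (adjusted p = 0.0307) and Mrps24 at 0.31 (adjusted p = 0.0260). Leaving out 1 library brought 4 uncalled members past both limits. These were Mrpl27 without fibrotic replicates 3, 4 or 5 or FLO replicates 3 or 6 (0.51 to 0.52), Mrpl57 without fibrotic replicates 3, 4 or 5 or FLO replicates 5 or 6 (0.51 to 0.57), Mrpl45 without FLO replicates 5 or 6 (0.50 and 0.51) and Mrpl33 without fibrotic replicate 6 (-0.54). The GC content and length correction, with or without the replicate block, also brought Mrpl27 (0.68 without the block), Mrpl57 (0.60) and Mrpl36 (0.60) past both limits.

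By adjusted p, the members just inside the threshold of 0.01 were Mrpl30 (-0.36, adjusted p = 0.00641), Mrps11 (0.31) and Mrpl55 (0.33, adjusted p = 0.00484), all under the fold limit. Just outside were Mrpl1 (0.36, adjusted p = 0.0152), Mrps31 (0.27, adjusted p = 0.0176) and Mrpl33 (-0.45, adjusted p = 0.0190). Mrpl23 had the widest error of the family, at 0.44 (SE 0.25, adjusted p = 0.148). Its pseudogene Mrpl23-ps1 held 5352 counts in all, beside 1015 for Mrpl23 itself, so its reads may be divided between near-identical copies. Mrpl23-ps1 stood at -0.31 (SE 0.11, adjusted p = 0.0290), opposite in sign, so the direction of Mrpl23 is uncertain.

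The genes that build the mitochondrial ribosome were set beside its proteins. Of 28 assembly and rRNA modification genes, 12 rose (42.9%) and 2 fell (7.14%), beside 15.9% and 14.0% of all tested genes. Their median log2 fold change was 0.29. The risen genes included Mrm3 (1.11) and Mrm2 (0.88), ribose methyltransferases of the large-subunit rRNA, Rpusd3 (1.03) and Rpusd4 (0.80), pseudouridine synthases, and Ddx28 (0.98), an RNA helicase. Malsu1, whose product keeps the immature large subunit from joining the small one, rose by 0.89 (SE 0.08, adjusted p = 4.68e-07), from 16.8 ± 1.41 to 31.3 ± 2.52 CPM (SD, n = 6). Nsun4 (0.81) and Mterf4 (0.60), whose proteins act as a complex in large-subunit assembly, rose too, as did Fastkd2 (0.74), Mtg2 (0.63), Rcc1l (0.54) and Eral1 (0.52). Mettl17, a factor for the small subunit, fell by 0.84 (SE 0.14, adjusted p = 0.000116), and Gtpbp6 fell by 0.59 (SE 0.09, adjusted p = 0.000100).

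Other lists of mitochondrial gene expression are described by their counts, beside 15.9% of all tested genes that rose and 14.0% that fell. For each list in this paragraph, the share called in either direction was below the 29.9% of all tested genes. None of 5 ribosomal proteins with other symbols was called by edgeR, although 3 passed the p threshold: Aurkaip1 at 0.47, Gadd45gip1 at 0.34 and Ptcd3 at -0.41. Of 14 tested translation factors and regulators, Trub2 (0.57), which encodes a pseudouridine synthase and not a translation factor, rose and Gfm2 (-0.56), for an elongation factor that recycles the ribosome, fell, with a median of 0.00. Of 16 genes of mitochondrial DNA upkeep, transcription and RNA stability, Tefm (0.81), a transcription elongation factor, and Fastkd3 (0.57), an RNA-binding protein, rose. The 2 that fell act in DNA replication, Polg2 (-1.34) as the accessory subunit of DNA polymerase gamma and Ssbp1 (-0.53) as the single-strand binding protein, and the median of the list was -0.08. Of 13 nuclear regulators of mitochondrial biogenesis, 1 rose: Esrra, which encodes the receptor ERR-alpha, by 0.92 (SE 0.08, adjusted p = 3.00e-07). Nrf1 stood at 0.20 (adjusted p = 0.217), Gabpa, for the ETS part of GABP, at -0.12 (adjusted p = 0.437) and Yy1 at 0.47 (adjusted p = 0.000104), and none of these 3 was called. Factors for the other motifs were not examined.

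The transcripts that the mitochondrial ribosome contains or translates differed in the opposite direction. Both mitochondrial rRNAs fell, mt-Rnr1 by 1.22 (SE 0.20, adjusted p = 0.000148) and mt-Rnr2 by 1.66 (SE 0.17, adjusted p = 1.99e-06). Poly(A) selection captures rRNA incompletely, and these genes took only 374 ± 115 and 529 ± 134 CPM in FLO livers (SD, n = 6). Of 13 mitochondrial mRNAs, 0 rose and 8 (61.5%) fell by the edgeR test, beside 15.9% and 14.0% of all tested genes. Their median log2 fold change was -0.75, and mt-Cytb, for cytochrome b, fell most, by 1.29 (SE 0.18, adjusted p = 2.17e-05). Together, mitochondrially encoded genes took 6.49 ± 1.15% of counts in fibrotic and 8.62 ± 1.09% in FLO libraries (SD, n = 6, two-sided exact permutation test over libraries, p = 0.0108), a comparison that was itself chosen with earlier results of these data known. Scaling without these genes left the same 27 members called.

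Cytosolic ribosomal protein genes, the counterpart family outside mitochondria, had a median log2 fold change of -0.17. Of 80 tested genes in that family, 4 rose (5.0%) and 4 fell (5.0%), beside 15.9% and 14.0% of all tested genes. Rpl5 had the largest change there, at 2.33 (SE 0.09, adjusted p = 1.42e-10). The direct difference between the families was not tested.

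**Figure D4:**
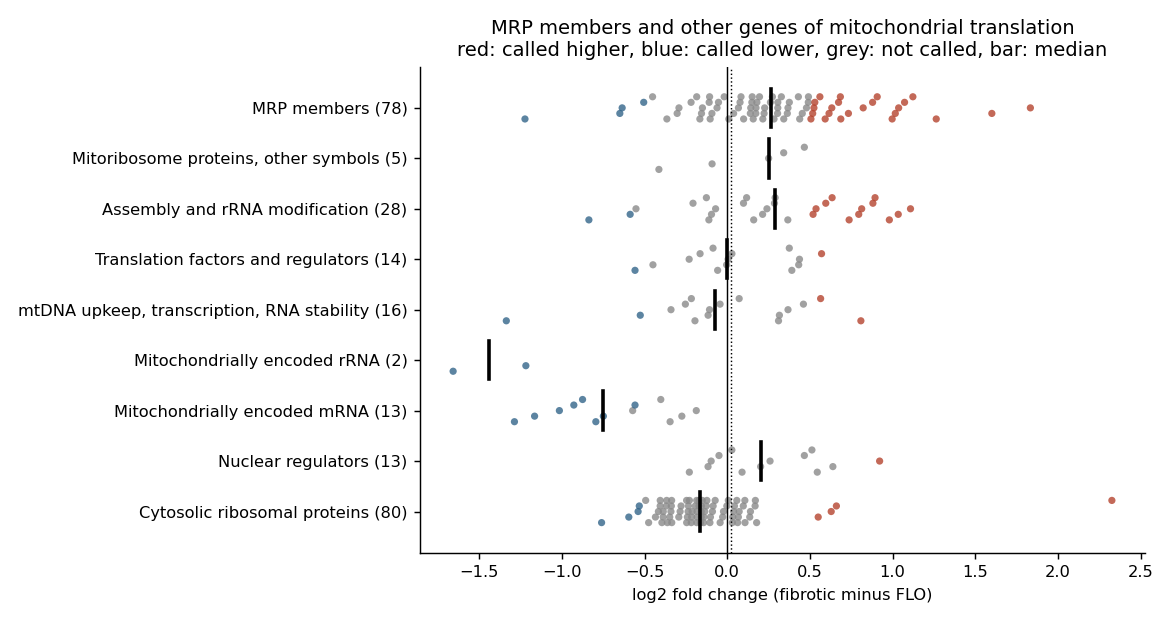
Log2 fold change (fibrotic minus FLO) of the 78 members and of other gene lists, 1 point per tested gene, with the number tested in parentheses; red was called higher, blue lower and grey not called. Black bars give medians (0.27 for the members, 0.29 for assembly genes, -0.75 for mitochondrial mRNAs and -0.17 for cytosolic ribosomal proteins) and the dotted line marks the median of all tested genes.

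Marker transcripts of several cell types differed between the groups, and in bulk liver fewer cells of a type and less RNA per cell cannot be told apart. The counts below stand beside 15.9% of all tested genes that rose and 14.0% that fell. Of 10 Kupffer cell and macrophage markers, 8 rose and 0 fell (median 0.78), and their summed level ran from 314 to 639.8 CPM in fibrotic and from 249 to 282 CPM in FLO livers. Of 6 tested cholangiocyte markers, 3 rose and 1 fell, with sums of 84.9 to 281 and 53.7 to 104 CPM. Of 10 hepatocyte markers, 1 rose and 4 fell (median -0.22), with overlapping sums of 55532 to 94429 and 82044 to 98603 CPM. Of 8 stellate cell markers 1 rose, and of 6 endothelial markers 1 fell. Lymphocyte markers were near the detection limit, with sums of 1.54 to 5.37 and 2.02 to 5.33 CPM. The part of cell makeup in the MRP differences was not tested.

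Promoter windows were matched for 69 of the 78 members, and 9 had no entry (Mrpl4, Mrpl13, Mrpl15, Mrpl19, Mrpl38, Mrpl54, Mrps28, Mrps34 and Mrps35). The ETS letters CCGGAAG were in the windows of 37.7% of these members, beside 19.5% of tested genes and 9.93% of all genes with a window. The NRF1 letters (GCGC, any base, TGCGC) were in 18.8% of members, 11.2% of tested genes and 5.19% of all genes. AAGATGG, for YY1, was in 18.8%, 8.34% and 7.28%, respectively. GGGCGG, for SP/KLF factors, was less frequent in members (49.3%) than in tested genes (67.2%), and in 38.2% of all genes. CACGTG, the E-box, was in 7.25% of members, 11.7% of tested genes and 8.09% of all genes, and TATAAA, the TATA box, in 7.25%, 9.35% and 15.7%. All motifs were read on both strands, and a gene with several windows counted once.

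These shares describe letters, not bound sites, and they occurred in risen, fallen and uncalled members. The ETS letters were in 9 of 19 risen members with a window, 3 of 4 fallen members and 14 of 46 members not called. Both Mrpl43 and Mrpl34, the extremes of the family printed above, held them. NRF1 letters were in 4 of 19 risen members, Mrpl12 among them, in 1 of 4 fallen members and in 8 of 46 not called. Cytosolic ribosomal protein genes held the ETS letters in 41.3% and the NRF1 letters in 9.52% of 63 windows.

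**Figure D5:**
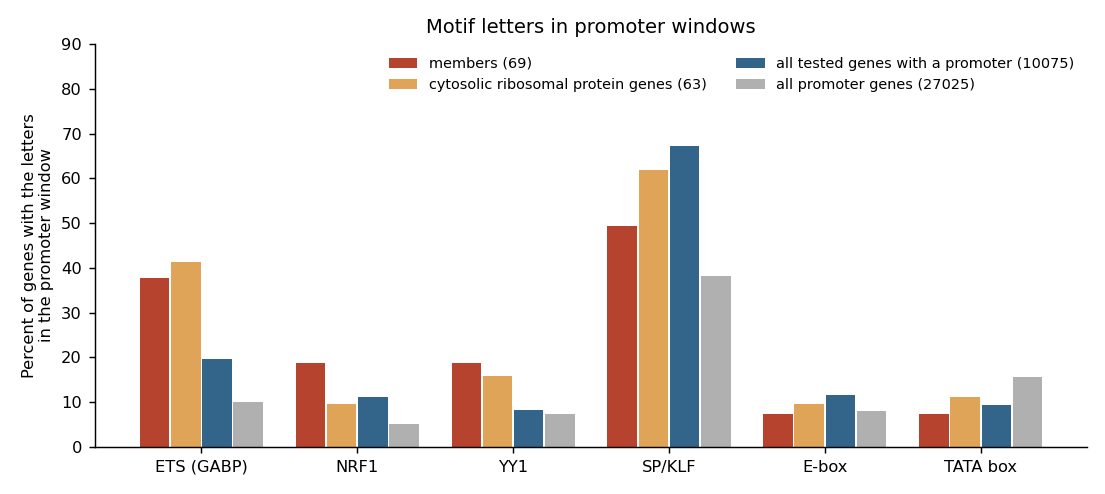
Percent of genes whose promoter window holds the letters of each motif, for 69 members, 63 cytosolic ribosomal protein genes, 10075 tested genes and all 27025 genes with a window. Members exceed the tested genes for ETS (37.7% against 19.5%), NRF1 and YY1 and lie below them for SP/KLF (49.3% against 67.2%).

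Exons of 33 members overlapped those of another annotated gene, and 45 had no such overlap. For Mrpl53, Mrps34 and Mrps25 the overlap covered more than 50% of the exonic bases. Next came Mrpl19 (36.0%), Mrpl43 (33.4%) and Mrps18b (30.5%), each overlapped by a gene on the opposite strand. Without OBOB_FLO replicate 3, whose sex-linked counts went against its label, 28 members were called, 24 higher and 4 lower, beside 3932 of 13586 tested genes. The family median was then 0.27. P-values judge the group differences against the spread between these mice, 1 library each.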

How the data were processed

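Per the labels, the authors made poly(A)-selected libraries from Trizol RNA of whole livers. They deposited 1 table of raw counts (whole numbers per Ensembl gene, not normalised). The submitters' processing notes name bcl2fastq, STAR 2.7.3a and mm10, and the mouse annotation and the strand setting of the counting are not given in the sources used here. Coordinates and biotypes came from GENCODE M21 (GRCm38, the same assembly as mm10). Groups and replicate numbers came from the sample titles. Counts of all genes were tested in R 4.3.3 with edgeR 4.0.16 (TMM, filterByExpr, robust quasi-likelihood fit, Benjamini-Hochberg adjustment over 13416 genes), with the study's thresholds of 0.01 and 0.5. The fit was also run on simulated counts with far fewer changed genes than were called here, balanced in direction and well past the fold limit. That run therefore does not test calls near the limit of 0.5 or scaling under a broad shift. SE is the log2 fold change divided by the square root of F. Log2 CPM used a prior count of 2. Lengths are those of the principal transcript. Alternatives were other normalisations and filters, DESeq2 1.42.0, limma-voom 3.58.1, a replicate block, a GC content and length offset, other thresholds and leaving out each library.

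The members, gene lists, motifs and tests were chosen with earlier results of these data known. Members were named by rank, level, nearness to the threshold and role, and all called members were named. Replicates of a group differed by more than sampling noise (smallest chi-square per degree of freedom 11.1).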

Additional observations from a re-analysis of the deposited data

Results flagged for a closer look

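Levels (log2 CPM) of the named members were screened for a single library far from the other 5 of its group, measured as its gap to the nearest value over the whole range in that group. Among 72 ratios, 6 exceeded the Dixon limit, where chance gives 3.6. In OBOB_FLO, Mrpl46 was lowest in replicate 6 (ratio 0.653, 3.86 against a nearest value of 4.10) and Mrpl12 was highest in replicate 3 (ratio 0.649, 7.05 against 6.86), the library whose sex-linked counts went against its label. In OBOB_Fibrotic, replicate 4 held the highest value of Mrpl19 (ratio 0.685, 4.21 against 3.82) and the lowest of Mrpl58 (ratio 0.682, 4.66 against 4.97). Mrps25 was highest in fibrotic replicate 1 (ratio 0.679, 4.79 against 4.40), and Mrpl55 lowest in fibrotic replicate 5 (ratio 0.637, 4.15 against 4.38). Mrpl46, Mrpl12 and Mrpl19 kept their calls when any 1 library was left out.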

How the results depend on the processing

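Between 24 and 28 members were called under the other normalisations, filters, tools and corrections. Over all genes, those fits called from 3689 of 13297 to 4655 of 24871. At an adjusted p of 0.05 with no fold limit, 50 members were called (42 higher, 8 lower), beside 52.1% of all genes. With a fold limit of 1, 8 were called (7 higher, 1 lower), beside 12.6%. Leaving out 1 library at a time gave 24 to 29 called members (20 to 25 higher, 3 to 4 lower), beside 3798 to 4093 of all tested genes. The same fits gave family medians of 0.24 to 0.28, large-subunit medians of 0.16 to 0.24, small-subunit medians of 0.28 to 0.38 and Mrpl43 values of 1.81 to 1.87. The difference in the mitochondrial share ran from -2.40 to -1.81 percentage points. Over 25 settings, 19 members were called higher and 2 lower (Mrpl34 and Mrpl48) in every one, 46 in none and 11 in some. No matching share over all tested genes is given, so these counts do not set the family apart. Correcting for GC content and transcript length moved the family median to 0.33, the subunit medians to 0.28 (large) and 0.41 (small) and Mrpl43 to 1.93. It changed the sign of 6 members, none of them called, among them Mrpl52 (0.012). With the replicate block added to that correction, the subunit medians were 0.27 and 0.41, 6 members changed sign, and Mrpl52 stood at 0.012. The replicate block alone left 27 members called (23 higher, 4 lower), beside 3780 of 13416 tested genes. Same-numbered libraries of the groups shared only a number: their deviations correlated at -0.16 to 0.10, none best with its own number. Median changes of all genes moved by under 0.1 between scalings.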
